A study of Mus musculus with 27 samples.

Results

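The NMDA receptor subunits are encoded in the mouse by 7 genes, Grin1, Grin2a, Grin2b, Grin2c, Grin2d, Grin3a and Grin3b. They were selected by matching the Ensembl identifiers of the gene count tables to these symbols, and all 7 were found among 52636 identifiers, of which 32688 carried a symbol. NMDA receptors are glutamate-gated cation channels that open when glutamate and a co-agonist, glycine or D-serine, are bound and the membrane is depolarised enough to expel a magnesium ion from the pore. GluN1, the product of Grin1, is present in every receptor and binds the co-agonist. The GluN2 subunits bind glutamate and set the opening kinetics, magnesium block and intracellular partners of the channel, while GluN3 subunits bind glycine and lower calcium flow. In the forebrain Grin2b predominates before birth and Grin2a rises after it, and both are expressed by pyramidal neurons of the cortex and by projection neurons of the striatum.

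RNA was sequenced from frontal cortex and striatum of adult mice of about 2.5 months on the 129S1 background. Igf2enh-/- mice were homozygous for the loss of a 4.9 kb fragment between H19 and Igf2, made in embryonic stem cells, and kept a loxP site where the fragment had been after removal of a selection cassette with an Hprt-CRE transgene. Wild-type mice were the controls, and no mouse received a drug or other treatment. By their labels, the libraries comprised 6 wild-type and 6 Igf2enh-/- frontal cortices (3 females and 3 males of each), 7 wild-type striata (3 females, 4 males) and 8 Igf2enh-/- striata (4 of each sex), whereas the design text gives 14 wild-type and 13 Igf2enh-/- mice. Libraries carry unique numbers that do not tie a cortex to a striatum, so each was treated as an independent animal, and region cannot be told apart from anything else that differed between the dissections.

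Totals ran from 23686945 to 33926904 counts per library. All 10 striatal projection neuron markers were higher in every striatal than in every cortical library. The mean log2(CPM + 0.5) of 7 cortical projection neuron markers was 6.94 to 7.20 in the cortical libraries. In striatum it ran from 2.06 (library 22) to 6.34 (library 20), so the level of these markers differed widely between striatal libraries. Of the 7, 5 were higher in every cortical than in every striatal library, while Emx1 and Rorb overlapped between regions. Library 20 also had the lowest striatal marker mean, 8.42 against up to 9.88. Among the other libraries that stood apart, library 15 (Igf2enh-/- striatum) had the highest choroid plexus mean (7.18) and library 19 (Igf2enh-/- striatum) the highest thalamus mean (3.48). In frontal cortex, library 1 (Igf2enh-/-) had the lowest oligodendrocyte mean (6.36) and library 9 (Igf2enh-/-) the highest olfactory bulb mean (2.69). Values below are counts scaled to library size (CPM) scaled by TMM factors unless stated otherwise. A gene passed the test at a Benjamini-Hochberg adjusted p under 0.05 in edgeR's quasi-likelihood test.

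Between regions, the subunit set split. Grin2a, Grin2d and Grin3a were between 1.72- and 1.85-fold lower in striatum, Grin2b was 1.12-fold lower, Grin2c was 1.12-fold higher, and Grin1 did not pass the test. Of the 6 members tested, 5 passed (4 lower and 1 higher in striatum). This has to be read against a background in which 77.5% of 13414 genes passed, 38.2% lower and 39.4% higher in striatum. In bulk tissue, fewer cells of a type and less RNA per cell cannot be told apart.

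**Figure D1:**
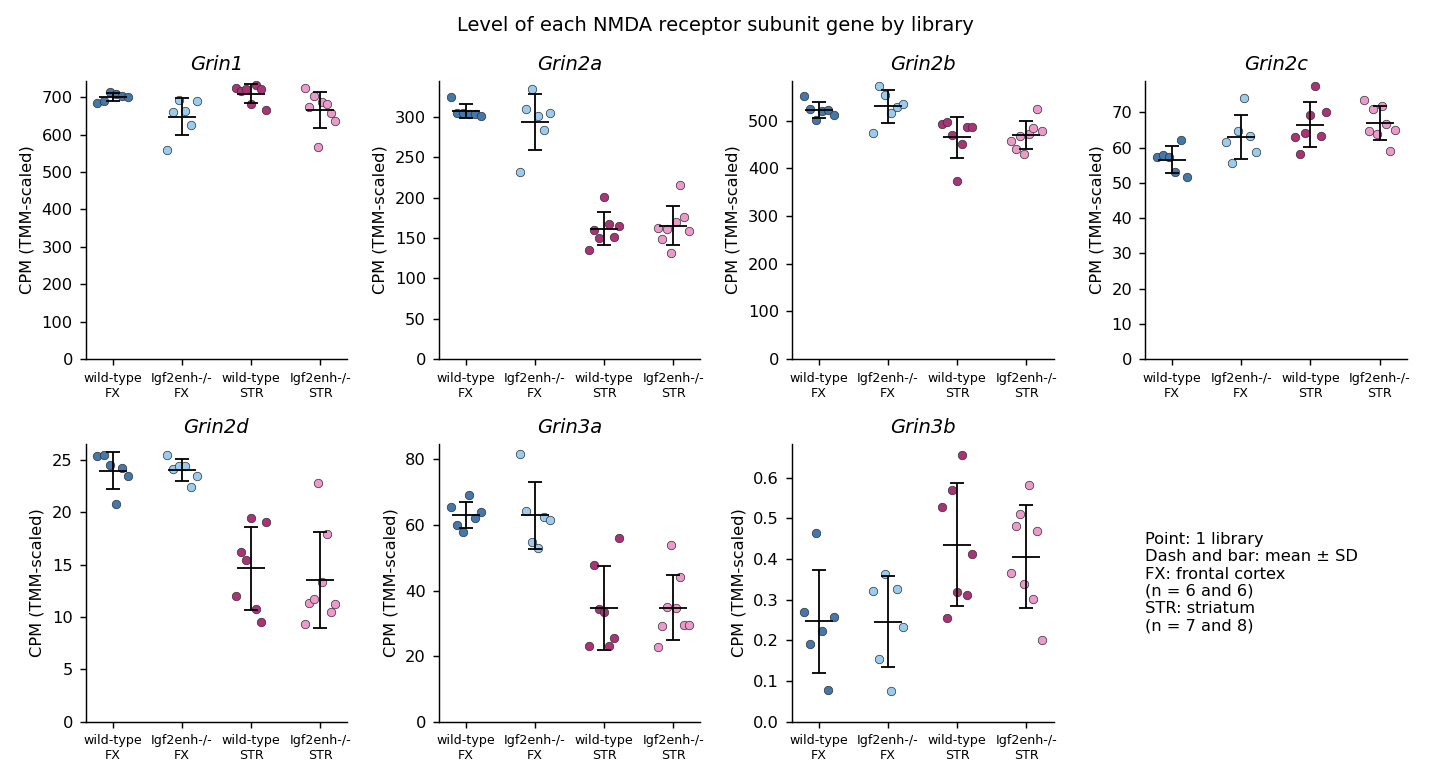
TMM-scaled CPM of each subunit gene (y axis, from 0, with its own scale per gene) in 4 groups (x axis), with 1 point per library and the mean ± SD. Grin2a is the gene whose cortical libraries (232 to 334 CPM) and striatal libraries (131 to 216 CPM) do not overlap.

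Grin1 (ENSMUSG00000026959, chr2:25291177-25319187, minus strand, GRCm38.p6) encodes the obligatory GluN1. Its lowest, median and highest CPM were 686, 702 and 713 in wild-type and 559, 661 and 692 in Igf2enh-/- frontal cortex. In striatum they were 666, 722 and 732 in wild-type and 566, 677 and 724 in Igf2enh-/- mice. The regions overlapped, although 6 of 15 striatal libraries lay above every cortical one. Striatum differed from cortex by a log2 fold change of 0.03 (SE 0.034, 95% interval -0.04 to 0.10, adjusted p = 0.437). Grin1 shares 1307 bases of exon with Grin1os (E130003G02Rik) on the opposite strand (GENCODE vM1 annotation), which lay between 1.72 and 3.79 CPM in every library.

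Grin2a (ENSMUSG00000059003, chr16:9567901-9996083, minus strand) encodes GluN2A, the GluN2 subunit of mature forebrain synapses with the fastest decay. Its lowest, median and highest CPM were 301, 305 and 324 in wild-type and 232, 303 and 334 in Igf2enh-/- frontal cortex. In striatum they were 135, 160 and 201 in wild-type and 131, 162 and 216 in Igf2enh-/- mice. Every striatal library lay below every cortical one. Of all genes tested, 26.0% separated the regions without overlap, and Grin2a was the 1 member that did. The mean fell from 301 ± 24.9 CPM (SD, n = 12) in cortex to 164 ± 22.1 (SD, n = 15) in striatum, a log2 fold change of -0.88 (SE 0.062, adjusted p = 1.99e-12). Within wild-type libraries it was -0.94 and within Igf2enh-/- libraries -0.83.

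Grin2b (ENSMUSG00000030209, chr6:135713221-136173615, minus strand) encodes GluN2B, the slower subunit that binds CaMKII. Lowest, median and highest CPM were 501, 521 and 552 in wild-type and 474, 531 and 573 in Igf2enh-/- frontal cortex. In striatum they were 374, 486 and 496 in wild-type and 430, 469 and 525 in Igf2enh-/- mice. Of the 15 striatal libraries, 8 lay below all cortical ones and the rest overlapped with them. The log2 fold change was -0.17 (SE 0.038, adjusted p = 0.000267). The lowest value was that of library 20, and without libraries 15 and 20 the change was -0.13 (adjusted p = 0.000350).

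Grin2c (ENSMUSG00000020734, chr11:115249169-115267297, minus strand) encodes GluN2C, best known from cerebellar granule cells and present in astrocytes of the forebrain. The lowest, median and highest CPM were 51.7, 57.3 and 62.2 in wild-type and 55.5, 62.5 and 74.1 in Igf2enh-/- frontal cortex, against 58.3, 64.1 and 77.6 in wild-type and 59.1, 65.8 and 73.4 in Igf2enh-/- striatum. The regions overlapped, and 1 of 15 striatal libraries exceeded every cortical library. The log2 fold change was 0.16 (SE 0.045, adjusted p = 0.00250). It was 0.23 within wild-type libraries (adjusted p = 0.00546) and 0.09 within Igf2enh-/- libraries (adjusted p = 0.203), a difference that did not pass its own test (region by genotype, log2 -0.14, unadjusted p = 0.129). The mean of 6 astrocyte markers ran from 7.65 to 8.00 on the log2 scale in cortex and from 7.50 to 8.08 in striatum, and that of the 2 cerebellar granule cell markers was below 0 in every library.

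Grin2d (ENSMUSG00000002771, chr7:45831883-45871194, minus strand) encodes GluN2D, which gives receptors with weak magnesium block and in the adult forebrain is found mainly in interneurons. The gene lies on the chromosome that carries the deleted fragment. In frontal cortex its lowest, median and highest CPM were 20.8, 24.4 and 25.5 in wild-type and 22.4, 24.3 and 25.5 in Igf2enh-/- mice. The striatal values were 9.54, 15.4 and 19.5 in wild-type and 9.36, 11.6 and 22.8 in Igf2enh-/- mice. The cortical libraries were tightly grouped and the striatal ones ranged widely, with 14 of 15 below every cortical value. Library 19 was the exception. The log2 fold change was -0.78 (SE 0.117, adjusted p = 1.27e-06).

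Grin3a (ENSMUSG00000039579, chr4:49661611-49846023, minus strand) encodes GluN3A, a subunit of immature synapses that reduces calcium entry. Its lowest, median and highest CPM were 58.0, 63.0 and 69.2 in wild-type and 53.1, 62.0 and 81.8 in Igf2enh-/- frontal cortex. In striatum they were 23.0, 33.6 and 56.1 in wild-type and 22.7, 32.1 and 53.8 in Igf2enh-/- mice. Again the striatal range was wide, with 13 of 15 libraries below every cortical one, and libraries 19 and 26 reaching into the cortical range. The log2 fold change was -0.87 (SE 0.130, adjusted p = 1.32e-06).

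Grin3b (ENSMUSG00000035745, chr10:79970397-79977190, plus strand) encodes GluN3B, a subunit of motor neurons. It was barely detected, with 2 to 12 counts per cortical and 6 to 19 per striatal library, or 0.0759 to 0.465 and 0.200 to 0.654 CPM, and fell under the filter of 1 CPM. In the fit without this filter it was higher in striatum by 0.78 on the log2 scale (SE 0.221, adjusted p = 0.00423), where 41.3% of 36013 genes passed. Striatal and cortical libraries overlapped. Its exons share 1059 bases with Tmem259 on the opposite strand (GENCODE vM1 annotation). The strand setting of the counting is not given in the sources used here, and Tmem259 was at 89.6 ± 3.49 CPM (SD, n = 12) in cortex and 94.2 ± 4.62 (SD, n = 15) in striatum. Reads of the overlap could not be assigned to either gene with certainty.

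**Figure D2:**
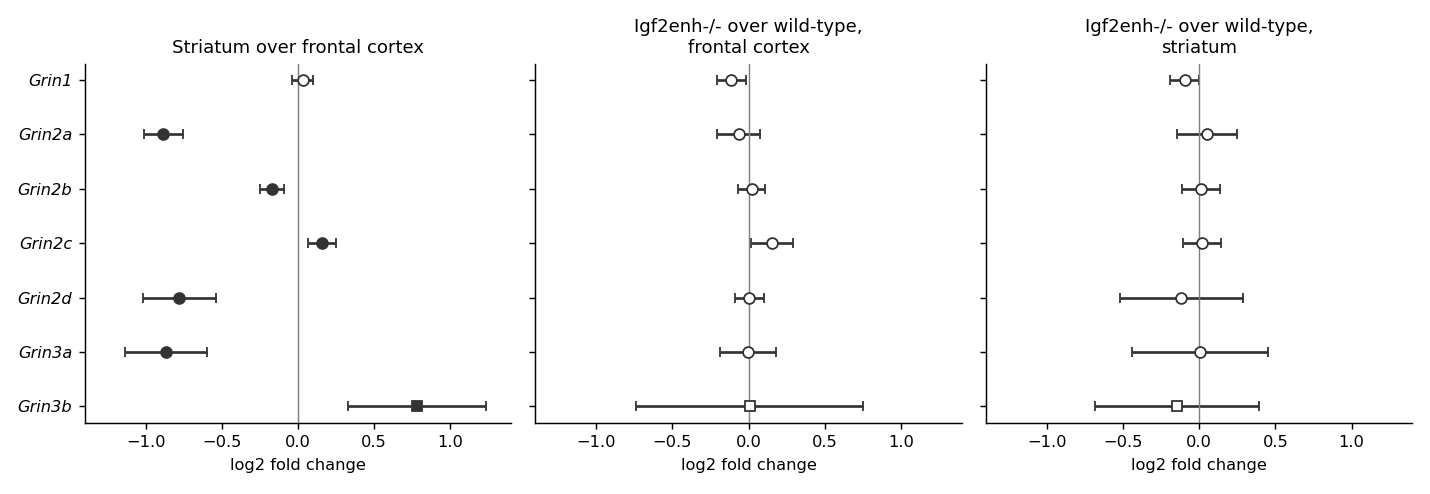
log2 fold change of each subunit gene with its 95% interval (x axis) for striatum over frontal cortex (27 libraries) and for Igf2enh-/- over wild-type in frontal cortex (12) and striatum (15). Filled symbols passed at an adjusted p under 0.05 and open ones did not. Squares mark Grin3b, fitted without the filter. Between regions 6 symbols are filled, and none is filled for genotype.

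Levels of different genes were compared per kilobase of merged exon and, as an alternative, of coding sequence. Per kilobase of exon, the mean level in cortex was 69.5 CPM for Grin1, 64.3 for Grin2b, 56.8 for Grin2a, 11.9 for Grin2c, 4.10 for Grin2d, 4.00 for Grin3a and 0.0748 for Grin3b. In striatum the order was the same, with 70.7 CPM per kilobase for Grin1, 57.2 for Grin2b, 30.9 for Grin2a, 13.3 for Grin2c, 2.40 for Grin2d, 2.20 for Grin3a and 0.127 for Grin3b. Neighbouring genes overlapped in their per-kilobase levels at 2 points in both regions. Grin1 exceeded Grin2b in 9 of 12 cortical and 15 of 15 striatal libraries, and Grin2d exceeded Grin3a in 8 of 12 and 11 of 15. Cortical Grin2b and Grin2a ranges also overlapped, although Grin2b was higher in 12 of 12 libraries. Per kilobase of coding sequence Grin3a, whose exons are mostly untranslated, moved above Grin2c in cortex (18.5 against 16.1 CPM) and above Grin2d in striatum (10.2 against 3.54 CPM). The closeness of Grin1 and Grin2b also depended on the length used. Per kilobase of coding sequence they did not overlap, at 234 against 118 CPM in cortex and 238 against 105 in striatum. Cortical Grin2b and Grin2a (68.4 CPM) did not overlap by this length either.

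The balance of the GluN2 genes shifted towards Grin2b and Grin2c in striatum. Of all GluN2 counts in cortex, Grin2b held 57.8% ± 1.13, Grin2a 33.0% ± 1.44, Grin2c 6.58% ± 0.748 and Grin2d 2.64% ± 0.220 (SD, n = 12). In striatum Grin2b held 65.7% ± 3.28, Grin2a 23.0% ± 2.73, Grin2c 9.40% ± 0.925 and Grin2d 1.99% ± 0.638 (SD, n = 15). These shares are given as a description, with no test. Per kilobase of exon the Grin2a share was higher in both regions, at 41.4% in cortex and 29.7% in striatum, and per kilobase of coding sequence it was 32.7% and 22.7%.

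**Figure D3:**
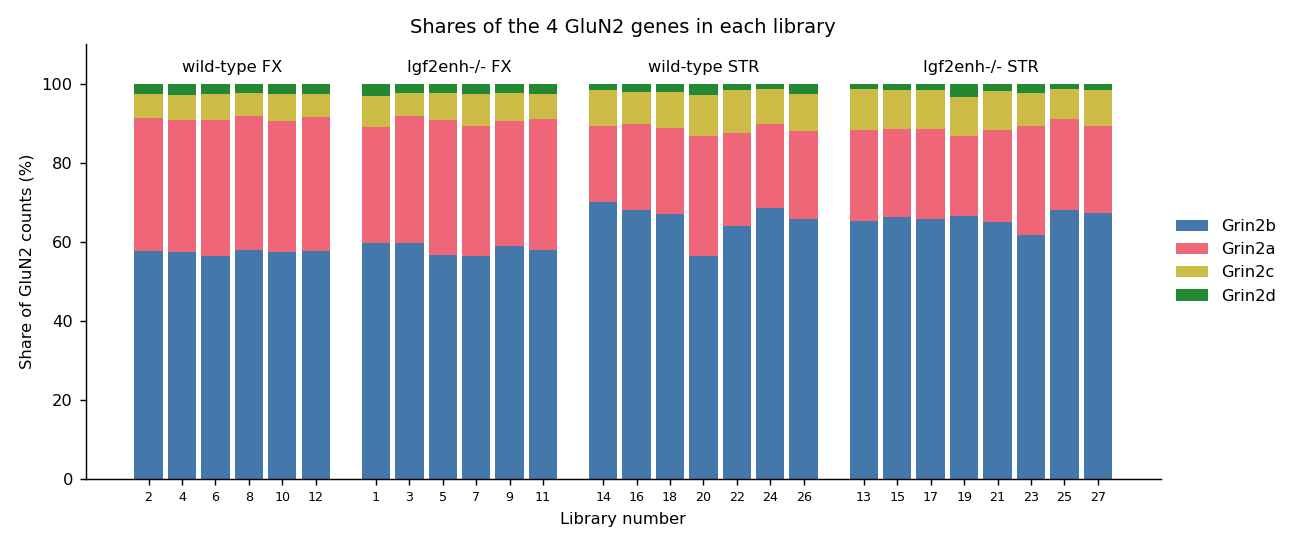
Share of the 4 GluN2 genes in their summed counts (y axis, %) for each of 27 libraries (x axis, library number), grouped by genotype and region. The Grin2a share is 29.3% to 34.3% in cortex and 19.2% to 30.2% in striatum, where library 20 has the highest value.

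Ratios of counts within a library do not depend on how libraries are scaled. In all, 3 ratios were compared in 5 ways each by permutation of the library labels (two-sided), with p-values adjusted over the 15 comparisons. The lowest, median and highest Grin2a to Grin2b ratio was 0.581, 0.586 and 0.609 in wild-type cortex and 0.490, 0.555 and 0.604 in Igf2enh-/- cortex. In striatum it was 0.274, 0.321 and 0.537 in wild-type and 0.304, 0.341 and 0.447 in Igf2enh-/- mice. Within each genotype the regions did not overlap. The mean log2 ratio was 0.77 lower in striatum (mean difference -0.77) in wild-type libraries (exact permutation p = 0.00117, adjusted p = 0.00350). In Igf2enh-/- libraries the difference was -0.66 (exact permutation p = 0.000333, the smallest this design allows, adjusted p = 0.00125). Over all 27 libraries it was -0.71 (permutation p = 1e-05, the smallest that 100000 resamples can give), where wild-type striatal library 20 overlapped with the cortical range.

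The Grin2b to Grin1 log2 ratio was also lower in striatum, by a mean difference of -0.19 in wild-type libraries (exact permutation, adjusted p = 0.00777) and -0.21 in Igf2enh-/- libraries (exact permutation, adjusted p = 0.00765). The Grin3a to Grin1 log2 ratio differed by -0.95 in wild-type (exact permutation, adjusted p = 0.00765) and by -0.93 in Igf2enh-/- libraries (exact permutation, adjusted p = 0.00583). Both ratios overlapped between regions in each genotype.

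Within striatum, Grin2d and Grin3a followed how much cortical marker RNA a library held. Over the 15 striatal libraries the log2 level of Grin2d correlated with the cortical marker mean at Pearson r = 0.736 (permutation p = 0.00154, adjusted p = 0.00719) and Spearman rho = 0.832 (permutation p = 0.000220, adjusted p = 0.000840). For Grin3a, r was 0.774 (permutation p = 0.000710, adjusted p = 0.00497) and rho 0.821 (permutation p = 0.000240, adjusted p = 0.000840). Leaving out the 2 libraries farthest from the median marker mean gave r = 0.862 for Grin2d and 0.700 for Grin3a. Within genotype, r for Grin2d was 0.853 in 7 wild-type and 0.822 in 8 Igf2enh-/- striata, and for Grin3a 0.786 and 0.839. With the striatal marker mean the sign was opposite. For Grin2d, r was -0.861 and rho -0.900 (permutation p = 3.00e-05 for both, adjusted p = 0.000420). For Grin3a, r was -0.668 (permutation p = 0.00528, adjusted p = 0.0185; -0.530 in wild-type and -0.965 in Igf2enh-/- striata) and rho -0.850 (permutation p = 0.000110, adjusted p = 0.000770). For Grin2d and Grin3a, this positive relation with the cortical marker mean was not seen in the 12 cortical libraries. The cortical marker means of those libraries spanned a much narrower range. There, as a description, r with the cortical marker mean was 0.0561 and rho 0.259 for Grin2d. For Grin3a they were -0.701 and -0.615 (r = -0.569 without the 2 farthest libraries). With the striatal marker mean, cortical Grin2d had the same sign as in striatum. Its r was -0.661 and rho -0.846 (r = -0.553 without the 2 farthest libraries), against -0.0446 and 0.0350 for Grin3a. Adjustment was over the 14 correlations of each kind in striatum. The relations of Grin2d and Grin3a to the markers were chosen after the values were seen.

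The other members did not pass in this family. Against the cortical marker mean in striatum, r was 0.478 for Grin2a (permutation p = 0.0713, adjusted p = 0.166), -0.297 for Grin2b, -0.216 for Grin2c, -0.358 for Grin1 and -0.449 for Grin3b. Over the 12 cortical libraries, as a description, r was 0.901 for Grin2a (rho 0.650, r = 0.621 without the 2 farthest libraries). For Grin1 it was 0.891 there (rho 0.448, r = 0.0475 without the 2 farthest). Cortical r was 0.530 for Grin2b (0.130 without the 2 farthest), -0.161 for Grin2c and -0.187 for Grin3b. The highest striatal Grin2a levels, 216 and 201 CPM, were those of libraries 23 and 20, which also had the highest cortical marker means (5.89 and 6.34). The lowest Grin2a levels, 131 and 135 CPM, were those of libraries 19 and 14, with marker means of 5.05 and 2.48. Interneuron markers moved with the same libraries, their mean running from 3.72 to 5.50 in striatum and from 5.55 to 5.91 in cortex. Vip was higher in every cortical than in every striatal library, whereas Pvalb, Sst and Lhx6 overlapped between regions. The thalamus mean was highest in library 19 and next in library 26 (2.59), which are the 2 striatal libraries with the most Grin3a. The part of cortical tissue, interneurons or thalamus in the regional differences of Grin2d and Grin3a was not tested. The striatal library with the fewest cortical markers, library 22, had 10.8 CPM of Grin2d and 23.1 CPM of Grin3a.

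**Figure D4:**
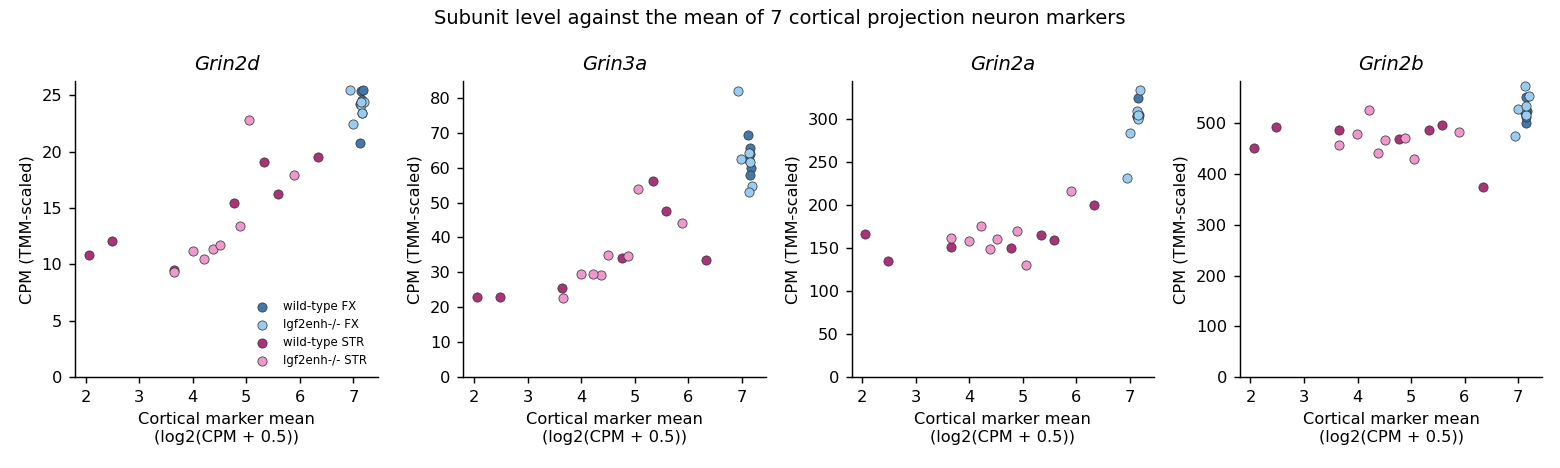
TMM-scaled CPM of Grin2d, Grin3a, Grin2a and Grin2b (y axes, from 0) against the mean log2(CPM + 0.5) of 7 cortical projection neuron markers (x axis), 1 point per library, coloured by group. Striatal Grin2d and Grin3a rise with the marker mean, which spans 2.06 to 6.34 there and 6.94 to 7.20 in cortex.

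Genotype was compared within each region. In frontal cortex, none of the 6 members tested passed, where 0.380% of 13936 genes did (53 genes). At an unadjusted p under 0.05 there were 2, where 1877 of the 13936 genes were, and edgeR's likelihood ratio test and DESeq2 also called 0 of 6. Grin1 was lower in Igf2enh-/- mice by a log2 fold change of -0.11 (SE 0.045, unadjusted p = 0.0233, adjusted p = 0.282), and 4 of 6 Igf2enh-/- libraries lay below every wild-type library. Grin2c was at 0.15 (SE 0.064, unadjusted p = 0.0303, adjusted p = 0.311), with 3 of 6 above every wild-type library. The other log2 fold changes were -0.06 for Grin2a, 0.02 for Grin2b, 0.00 for Grin2d and -0.01 for Grin3a, with 95% intervals that together ran from -0.20 to 0.18. Grin3b, fitted without the filter, was at 0.01 (95% interval -0.74 to 0.75).

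Library 1 held the lowest Grin1, Grin2a and Grin2b and the highest Grin3a of the cortical libraries. It also had the lowest cortical projection neuron marker mean (6.94) and the highest thalamus mean (2.10) of these libraries. The part of these markers in its values was not tested. Without library 1 the genotype difference was -0.07 for Grin1, 0.00 for Grin2a and -0.10 for Grin3a, none of which passed.

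In striatum, none of the 6 members passed, where 0.0360% of 13875 genes did (5 genes), and 0 had an unadjusted p under 0.05, where 1394 genes did. The likelihood ratio test and DESeq2 called 0 of 6. Grin1 had the smallest p, at a log2 fold change of -0.10 (SE 0.045, 95% interval -0.19 to 0.00, unadjusted p = 0.0538, adjusted p = 0.510), with 3 of 8 Igf2enh-/- libraries below every wild-type library. Grin2a was at 0.05, Grin2b at 0.01, Grin2c at 0.02, Grin2d at -0.12 and Grin3a at 0.00. The intervals of Grin2d (-0.52 to 0.29) and Grin3a (-0.44 to 0.45) were the widest of the 6. For each member, the values inside its interval were not excluded by these libraries. Grin3b was at -0.15 (95% interval -0.68 to 0.39). No gene of 13414 passed for a difference of the genotype effect between regions (edgeR quasi-likelihood, likelihood ratio test and DESeq2), with 405 at an unadjusted p under 0.05, none of them a member.

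Of the ratios, that of Grin2b to Grin1 passed for genotype in frontal cortex in the adjustment over all 15 comparisons. The lowest, median and highest ratios were 0.703, 0.739 and 0.805 in wild-type and 0.775, 0.822 and 0.868 in Igf2enh-/- libraries. In 5 of 6 wild-type libraries it lay below every Igf2enh-/- library, and wild-type library 2 overlapped with them. The mean log2 ratio was 0.14 higher in Igf2enh-/- mice (exact permutation p = 0.0108, adjusted p = 0.0162, n = 6 and 6). In striatum the difference was 0.11 (exact permutation p = 0.118, adjusted p = 0.148, n = 7 and 8), and whether the regions differ in it was not tested. Neither gene passed the test across all genes on its own. The adjustment of the ratios also covered the comparisons between regions. Those had smaller p-values, which eases the threshold for a genotype comparison. An adjustment over the genotype comparisons alone was not made, so the pass holds only for the family of 15 comparisons. The Grin2a to Grin2b log2 ratio differed by -0.09 in cortex (exact permutation p = 0.0736, adjusted p = 0.10) and by 0.02 in striatum (exact permutation p = 0.897, adjusted p = 0.897). For Grin3a to Grin1 the differences were 0.10 and 0.13 (exact permutation, adjusted p = 0.676 for both).

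Sex was a term of the genotype fits. No member passed for it in frontal cortex, where 0.0431% of genes did, or in striatum, where 0.0432% did (edgeR quasi-likelihood test, 1 and 0 members at an unadjusted p under 0.05, and 0 members called by the likelihood ratio test or DESeq2). The member with an unadjusted p under 0.05 was Grin2d in cortex, at -0.11 for males over females (adjusted p = 0.625). For a difference of the genotype effect between the sexes, none of the 6 members tested passed or had an unadjusted p under 0.05 in either region (edgeR quasi-likelihood test; without the filter, 0 of 7 passed and 1 had an unadjusted p under 0.05 in cortex), where 0.0215% of genes passed in cortex and 0 in striatum.

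A list of 30 genes whose products anchor, supply, modify or transport NMDA receptors was examined beside the subunits, of which 29 passed the filter and Dao, D-amino acid oxidase, did not. Between regions 11 were higher and 15 lower in striatum and 3 did not pass, with a median log2 fold change of -0.11 against 0.01 over all genes. Over all genes, 77.5% passed, 39.4% higher and 38.2% lower in striatum. Among the scaffolds of the postsynaptic density, 4 were higher, 5 lower and 1 did not pass. The signalling enzymes had 3 higher and 6 lower, the co-agonist group 1 higher, 2 lower and 2 that did not pass, and the trafficking and auxiliary proteins 3 higher and 2 lower.

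The 5 partners of smallest p were 2 trafficking and auxiliary proteins, 2 signalling enzymes and 1 scaffold. Actn2, an alpha-actinin that binds GluN1 and GluN2B, had a log2 fold change of 3.45, from 12.5 ± 1.41 CPM (SD, n = 12) in cortex to 136 ± 32.3 (SD, n = 15) in striatum. Ptpn5, the striatum-enriched phosphatase STEP that dephosphorylates GluN2B, was at 1.89 (169 ± 11.6 to 626 ± 118 CPM). Kif17, the kinesin that carries GluN2B vesicles, was at 0.99, and Shank3, a postsynaptic scaffold, at 0.86. Camk2a, the kinase that docks on GluN2B, fell by 1.04 on the log2 scale (5753 ± 298 to 2799 ± 458 CPM). Their adjusted p-values ran from 1.29e-17 to 6.56e-13 (edgeR quasi-likelihood test). The opposite directions within a group extended to paralogues: Camk2b was at 0.75 where Camk2a fell, and Shank1 and Shank2 were at -1.85 and -0.96 where Shank3 rose.

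**Figure D5:**
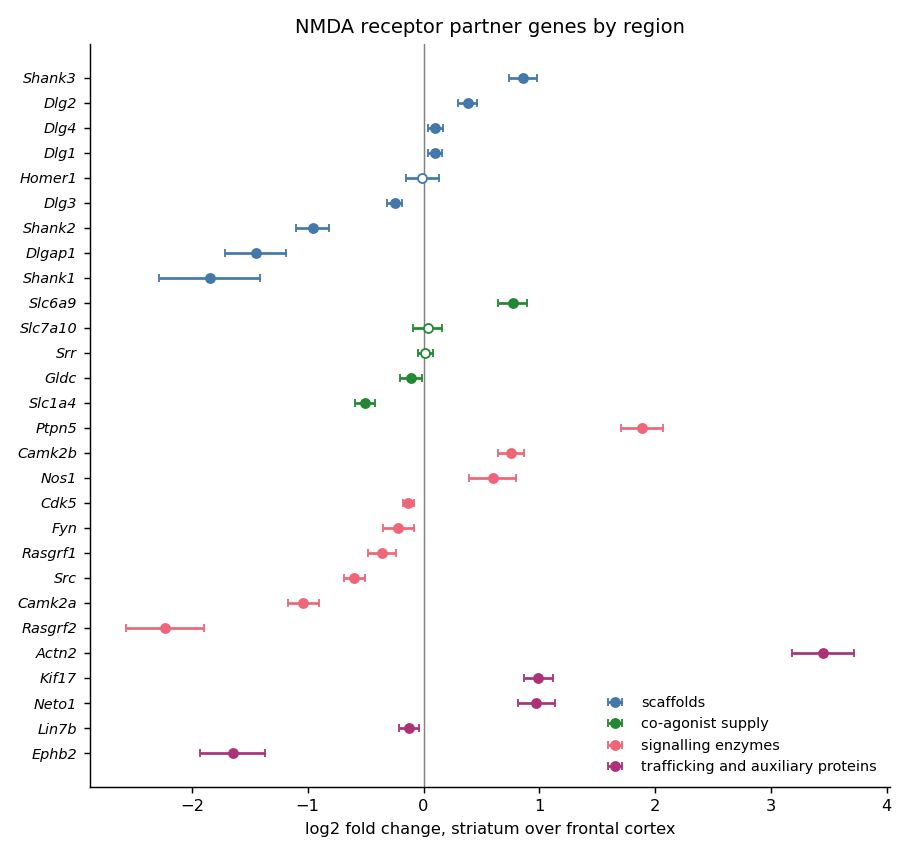
log2 fold change of 28 of the 29 NMDA receptor partner genes tested for striatum over frontal cortex with 95% intervals (x axis, 27 libraries), coloured by group. Open circles did not pass at an adjusted p under 0.05. Actn2 (3.45) and Rasgrf2 (-2.23) mark the ends of the range.

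By genotype, none of the 29 partners passed in either region (edgeR quasi-likelihood test, 3 at an unadjusted p under 0.05 in each, where 1877 of 13936 genes were in cortex and 1394 of 13875 in striatum). Their median log2 fold change was -0.01 in cortex and -0.06 in striatum, against 0.00 over all genes in both. Fyn, a Src-family kinase that phosphorylates GluN2B, had the smallest p in both, with a log2 fold change of -0.29 in cortex (unadjusted p = 0.00142, adjusted p = 0.101) and -0.29 in striatum (unadjusted p = 0.00717, adjusted p = 0.331). Its wild-type libraries were the more variable, with 154 ± 29.9 CPM against 125 ± 4.61 in cortex (SD, n = 6 and 6) and 134 ± 31.1 against 107 ± 3.92 in striatum (SD, n = 7 and 8). The next partners in cortex were Kif17 (0.10), Rasgrf2 (-0.13), Lin7b (-0.09) and Camk2b (-0.07), with adjusted p-values from 0.342 to 0.400. Those reported in striatum were Cdk5 (-0.10), Lin7b (-0.15) and Dlg4 (-0.09), with adjusted p-values from 0.348 to 0.586. For the difference of genotype effects between regions the partners of smallest p were Cdk5, Dlg1, Dlg4, Nos1 and Src, all at an adjusted p of 1.00.

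The pattern of each of the 6 members over the 27 libraries was compared with that of 13413 other genes by the root mean square difference of log2(CPM + 0.5), each gene centred on its own mean. Grin1, the least variable member (SD of 0.10 on the log2 scale), was closest to Jph3 (0.06), Arhgef17 (0.06) and ENSMUSG00000096146 (0.07). Grin2a (SD 0.48) was closest to Pcdh7 (0.10), Cacna2d1 (0.11) and Camta2 (0.11), at differences far under its own spread. Grin2b (SD 0.13) was closest to Ube3c, Gas7 and Ipo11, each at 0.06 to 0.07, and Grin2c (SD 0.15) to mt-Co1 (0.09), Bckdha (0.10) and D19Wsu162e (0.10). Grin2d (SD 0.50) was closest to Tox2 (0.14), Grip2 (0.14) and Sesn2 (0.15), and Grin3a (SD 0.56) to Epha5 (0.13), Tubb2a (0.14) and Epb4.1l4b (0.15). No member was among the 3 nearest genes of another.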

How the data were processed

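Gene counts from 27 RNA libraries of mouse frontal cortex and striatum were analysed. The deposited values are raw counts that the authors obtained from 75-base single-end reads of ribosome-depleted libraries, trimmed with Trim Galore 0.5.0 and aligned with STAR to GRCm38 with GENCODE vM15. The tool and strand setting of the counting are not given in the sources used here. The tables held 0 columns of other samples.

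Members and lists were chosen with earlier results of these data known. Identifiers were matched to symbols, exon lengths and overlaps of GENCODE vM1, and positions are from RefSeq (GRCm38.p6). A gene entered a fit if no library of that fit had it under 1 CPM, and those genes were scaled by TMM and tested with edgeR 4.0.16 in R 4.3.3 (quasi-likelihood, Benjamini-Hochberg adjustment). Models held genotype and sex within a region, or genotype by region groups and sex over all libraries. The SE is the log2 fold change divided by the square root of its F statistic. CPM use the TMM factors over 27 libraries, and marker means and likeness add 0.5 CPM. Ratios were compared by exact permutation with scipy 1.17.1 and numpy 2.4.6, or 100000 resamples over all libraries.

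The genes named are the 7 members, the 5 partners of smallest p per comparison, the 3 nearest genes in likeness and the markers. Of the partners, 1 is counted but not reported here by name. Others, such as Camk2b, Shank1, Shank2 and Rasgrf2 between regions, were named after their values were seen. DESeq2 1.42.0, other scalings, filters and models, and leaving out each library, were alternatives. Replicate pairs differed by more than sampling noise, with a chi-square per gene of at least 2.20. Since the labels do not tie libraries to mice, p-values measure the spread between these libraries. In a simulation, 200 genes were given a log2 change of 0.8. The test recovered 195 in the cortical genotype comparison of 13936 genes and 182 in the striatal one of 13875. In the regional one of 13414 it recovered 194. It also called 13, 8 and 10 unchanged genes, in the same order. The genotype differences of the members were smaller than 0.8, so this recovery says nothing about detecting them.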

Additional observations from a re-analysis of the deposited data

Results flagged for a closer look

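Within groups, 10 of 56 sets of values (subunit levels, log2 ratios and GluN2 shares in each of 4 groups) held a library far from the rest, where chance gives about 1 in 20. Ratios and shares come from the same counts as the levels. The sets are therefore not independent, and the comparison with chance is not a test. In wild-type frontal cortex, library 2 had 324 CPM of Grin2a against 301 to 305 in the others, library 6 a log2 Grin2a to Grin2b ratio of -0.72 against -0.78 to -0.76, and library 8 a Grin2d share of GluN2 counts of 2.32% against 2.64% to 2.79%. In Igf2enh-/- frontal cortex, library 1 had a log2 Grin3a to Grin1 ratio of -2.77 against -3.66 to -3.33 and a Grin2d share of 3.21% against 2.50% to 2.67%, and it also had the lowest oligodendrocyte marker mean.

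In wild-type striatum, library 20, which had the highest cortical marker mean, had 374 CPM of Grin2b against 452 to 496 and a Grin2a share of 30.2% against 19.2% to 23.6%. That library also had the highest oligodendrocyte (9.71) and astrocyte (8.08) marker means of the striatal libraries. In Igf2enh-/- striatum, library 23 had a log2 Grin2a to Grin2b ratio of -1.16 against -1.72 to -1.47 and a Grin2a share of 27.6% against 20.2% to 23.4%, with the highest cortical marker mean of that group (5.89). Library 19, with the highest thalamus marker mean, had a Grin2d share of 3.52% against 1.33% to 2.29%. The part of these markers in the values was not tested.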

How the results depend on the processing

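The counts of members called were 0 for genotype in either region and for region by genotype under every alternative run, including each left-out library, and 5 between regions, except 4 in Igf2enh-/- libraries alone (Grin2c, 0.09) and 6 of 7 without the filter. The higher Grin2b to Grin1 ratio in Igf2enh-/- cortex passed without each library in turn, adjusted together with the comparisons between regions. Those comparisons ease the threshold, and a pass among the genotype comparisons alone is not shown.

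Counts over all genes moved more, so the genotype backgrounds depend on the settings. In frontal cortex (53), they were 459 without the filter, 232 with the likelihood ratio test, 247 with DESeq2, 29 with RNA integrity number as a term, 1 within females and 20 within males. Leaving out each library gave 8 (without library 10) to 99 (without library 1), with 84 without library 7, 32 without library 11, and 10 to 17 without libraries 4, 6, 8, 9 or 12. In striatum (5), they were 10 without the filter, 56 with the likelihood ratio test, 112 with DESeq2, 3 without the sex term, 83 with the cortical marker mean as a term (added after seeing the data) and 1 within females. Leaving out each library gave 3 (without library 18, 19, 21, 24, 25 or 27) to 8 (without library 23). The cause was not tested.

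Genotype differences of members that changed sign failed the test before and after. In cortex they were -0.0288 for Grin2d within females, and for Grin3a 0.0422 with RNA integrity number and 0.1285 within females. In striatum, those within males were -0.0210 for Grin2a, -0.0719 for Grin2c and 0.1483 for Grin2d. Grin2b was at -0.0186 without libraries 15 and 20, -0.0126 with libraries 21 to 27 as a term and -0.0332 within females. Grin3a was at -0.0417 with RNA integrity number, -0.0096 without libraries 15 and 20, -0.0434 with the cortical marker mean and -0.2557 within females. For region by genotype, Grin3a was at 0.0058 with DESeq2 size factors, 0.0011 scaled by total count, 0.0047 with DESeq2, 0.0039 without the sex term and 0.0116 without libraries 15 and 20.

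Leaving out each library also turned the sign of small differences. In cortex the ranges were -0.1077 to 0.0007 for Grin2a (the latter without library 1), -0.0041 to 0.0548 for Grin2b, -0.0276 to 0.0201 for Grin2d and -0.0973 to 0.0404 for Grin3a. The striatal ranges were -0.0133 to 0.1056 for Grin2a, -0.0317 to 0.0282 for Grin2b, -0.0150 to 0.0474 for Grin2c and -0.1018 to 0.1452 for Grin3a. For region by genotype they were -0.0271 to 0.0545 for Grin1, -0.0565 to 0.0103 for Grin2b and -0.1028 to 0.1613 for Grin3a. The genotype difference of the log2 Grin2a to Grin2b ratio ran from -0.1175 to -0.0569 in cortex and from -0.0393 to 0.1227 in striatum. In cortex it passed without library 5, adjusted together with the comparisons between regions. The genotype difference of the log2 Grin3a to Grin1 ratio ran from -0.0203 to 0.1565 in cortex and from -0.0019 to 0.2708 in striatum.

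No paired analysis was possible because the libraries carry unique numbers that no label ties to each other or to a mouse. Depth limited Grin3b, with at most 19 counts in a library.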
